A study of Mus musculus with 24 samples.

Results

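The endocannabinoid receptor and enzyme genes are Cnr1, Dagla, Daglb, Mgll, Napepld, Faah and Ptgs2. They were read through every probe set (the probes on the array that together measure a transcript) whose only gene symbol in the platform annotation is one of these names. That gave 13 probe sets of the 45037 tested, and 7 of the 18193 named genes. Mgll has 4 probe sets, Cnr1, Faah and Ptgs2 have 2 each, and Dagla, Daglb and Napepld have 1 each. No probe set was added through an older alias.

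The 24 Affymetrix arrays came from male mice of lines bred for how much they freeze in contextual fear conditioning, in which a mouse is returned to a chamber where it was shocked. The groups are amygdala of line 25 (high freezing), amygdala of line 24 (low freezing), hippocampus of line 25 and hippocampus of line 24, with 6 arrays in each. The sources used here give no age, strain background, training before dissection or pooling of animals. Each direction of breeding is represented by 1 line, so selection and chance drift between the lines cannot be told apart. Nothing says that arrays of a group are separate animals, and a p-value then covers only the spread among these arrays.

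Endocannabinoids are lipids that a neuron releases to dampen its own inputs. Cnr1 encodes CB1, the main cannabinoid receptor of the brain, which sits on axon terminals and reduces transmitter release. The lipid 2-arachidonoylglycerol is made by the diacylglycerol lipases Dagla and Daglb and broken down by monoacylglycerol lipase, Mgll. Anandamide, the other main endocannabinoid, can be made by Napepld and is hydrolysed by fatty acid amide hydrolase, Faah. Ptgs2 encodes cyclooxygenase-2, which makes prostaglandins from arachidonic acid, also oxidises both endocannabinoids, and is induced by activity in neurons. In amygdala and hippocampus this system is known for its part in fear extinction.

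Values are deposited signals, in linear intensity units scaled to a common trimmed mean on each array. Differences are on the log2(signal + 16) scale, where the change of a weakly expressed gene is understated, and a probe set was called where limma's adjusted p was under 0.05. Array medians ran from 43.3 to 55.6. Regional markers followed the tissue labels: 8 of 8 hippocampus markers were lower in amygdala and 7 of 7 amygdala markers were higher. All 5 measured striatum markers were also higher in amygdala, with summed signals of 1884 to 3196 in amygdala of the high line and 1890 to 3947 in amygdala of the low line, against 653 to 776 in hippocampus of the high line and 649 to 818 in hippocampus of the low line. The 18S ribosomal RNA control read 295 to 1525 on amygdala arrays and 3600 to 7093 on hippocampus arrays, so tissue and sample preparation cannot be told apart. The actin 5' to 3' ratio was 0.301 and 0.339 on high line amygdala arrays 7 and 8, against 0.497 to 0.630 on the other amygdala arrays, and hippocampus array 7 of the high line stood apart in the leading principal component of its tissue, with a score of 80.7 against -29.3 to 33.0 on the other hippocampus arrays.

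The first question was how the genes differ between the tissues. Between amygdala and hippocampus, 8 of the 13 probe sets were called, and all 8 were lower in amygdala. Over all probe sets 25.8% were called in either direction and 12.9% were called lower. Those shares include weak probe sets, and the members were chosen with earlier results of these data known. The 8 probe sets belong to Ptgs2, Napepld, Dagla, Faah, Mgll and Cnr1. Daglb was the one gene with no called probe set. The median difference of the 13 probe sets was -0.42 on the log2 scale, against -0.02 over all probe sets. Counted by the brightest probe set of each gene, 4 of 7 were called lower. Within the high line 8 of 13 were called lower (19.1% of all probe sets called, 10% lower), and within the low line 7 of 13 (13.5% called, 6.47% lower). The arrays of the tissues did not overlap on 4 of 13 probe sets over both lines (4.91% of all probe sets), on 5 in the high line (10.6%) and on 6 in the low line (8.86%). In bulk tissue, fewer cells of a type and less RNA per cell cannot be told apart.

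The promoters of Ptgs2, Napepld and Faah are shown because these genes had the largest called differences among the members with an entry in the RefSeq promoter table, which held 6 of the 7 genes (not Dagla). Each window runs from 250 bases before to 25 bases after the annotated start in GRCm38.p6, 5' to 3' on the gene's strand, and capitals mark motif matches on either strand. The windows are chr1:150099781-150100055 (plus strand) for Ptgs2, chr5:21701598-21701872 (minus strand) for Napepld and chr4:116017900-116018174 (minus strand) for Faah.
Ptgs2: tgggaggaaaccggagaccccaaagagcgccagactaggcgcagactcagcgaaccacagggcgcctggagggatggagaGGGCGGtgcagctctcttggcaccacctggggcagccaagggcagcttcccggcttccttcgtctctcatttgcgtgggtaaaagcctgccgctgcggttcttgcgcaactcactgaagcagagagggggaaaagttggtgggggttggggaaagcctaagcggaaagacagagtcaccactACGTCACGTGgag
Napepld: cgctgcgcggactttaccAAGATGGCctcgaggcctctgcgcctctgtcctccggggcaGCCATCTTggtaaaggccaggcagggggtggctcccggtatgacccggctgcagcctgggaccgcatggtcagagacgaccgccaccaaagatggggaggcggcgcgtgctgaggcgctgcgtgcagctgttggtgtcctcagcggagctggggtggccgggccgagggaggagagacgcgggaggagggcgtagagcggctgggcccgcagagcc
Faah: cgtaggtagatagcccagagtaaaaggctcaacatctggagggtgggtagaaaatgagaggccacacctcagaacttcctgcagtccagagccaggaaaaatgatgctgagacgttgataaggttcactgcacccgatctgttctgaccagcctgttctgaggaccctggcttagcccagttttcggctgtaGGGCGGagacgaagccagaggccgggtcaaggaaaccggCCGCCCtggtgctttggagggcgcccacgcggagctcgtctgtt
The motifs searched were the cAMP response element half-site TGACGT, the E box CACGTG, the GC box GGGCGG and the YY1 core AAGATGGC, chosen after the sequences had been read. Counting the annotated start as base 1, the Ptgs2 window holds GGGCGG at -170, TGACGT on the minus strand at 13 and CACGTG at 17, and the neighbouring matches at 13 and 17 share bases. Where transcription starts in these tissues was not measured. Napepld has AAGATGGC at -232 and, on the minus strand, at -191. Faah has GGGCGG at -58 and, on the minus strand, at -19. Of 32851 windows of this length in the table, 7.17% hold TGACGT, 6.68% hold CACGTG, 34.4% hold GGGCGG and 2.09% hold AAGATGGC. A match describes these letters only.

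**Figure D1:**
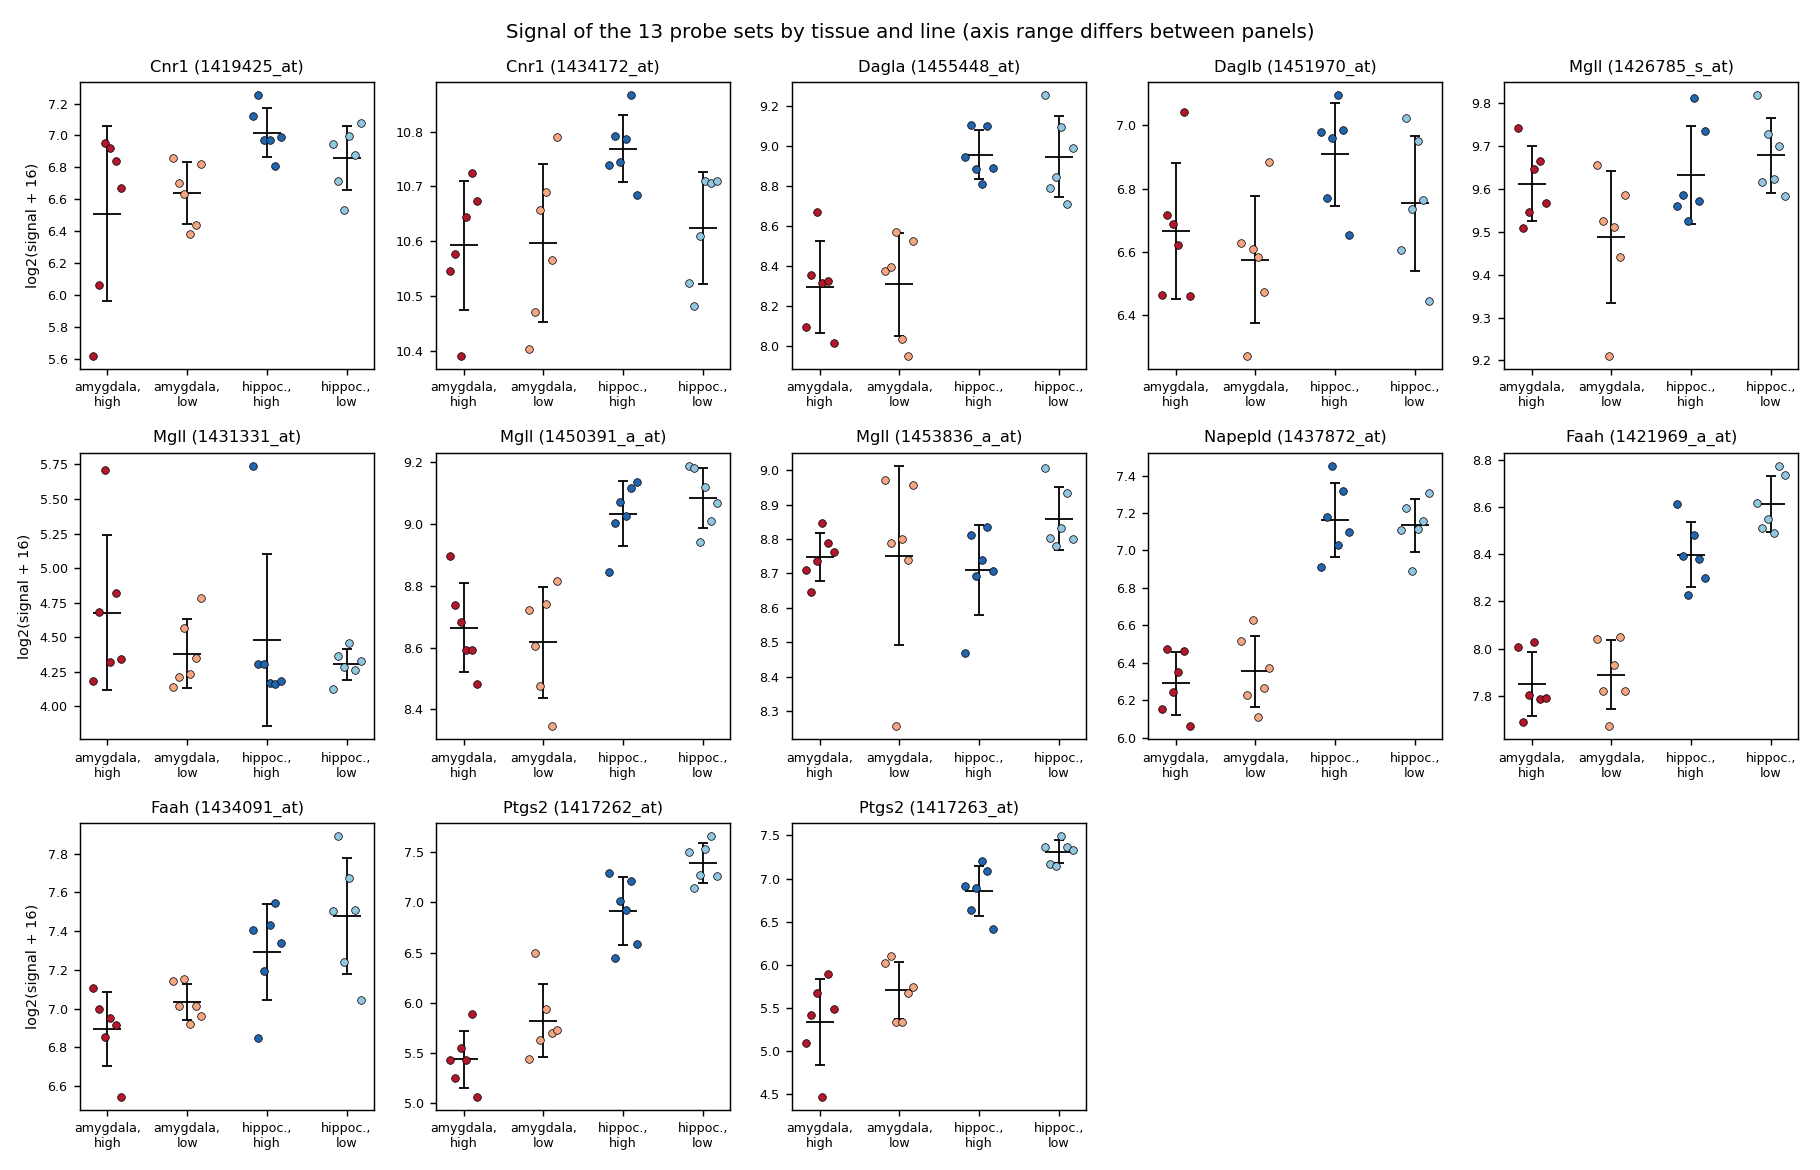
Signal of each of the 13 probe sets on the log2(signal + 16) scale (y axis, range differs between panels) in the 4 groups of tissue and line (x axis); points are arrays, bars the group mean and SD of 6 arrays. Both Ptgs2 probe sets, Napepld, Dagla and Faah 1421969_a_at sit lower in both amygdala groups, while the groups of Cnr1 1434172_at, Daglb and Mgll 1426785_s_at overlap.

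Cnr1, the receptor, was not called on probe set 1434172_at. The signal of 1434172_at was 1326 to 1675 (median 1548) in amygdala of the high line, 1338 to 1756 (median 1549) in amygdala of the low line, 1630 to 1851 (median 1726) in hippocampus of the high line and 1414 to 1659 (median 1601) in hippocampus of the low line. Hippocampus of the high line was the highest group, and its range overlapped with that of each other group. The difference was -0.10 ± 0.05 (SE) on the log2 scale, with an adjusted p of 0.163 from limma and a 95% interval of -0.21 to 0.01. By line it was -0.18 ± 0.07 in the high line (SE; limma adjusted p 0.0987) and -0.03 ± 0.07 in the low line (SE; limma adjusted p 0.880).

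The other Cnr1 probe set, 1419425_at, was called lower in amygdala, at -0.36 ± 0.12 (SE; limma adjusted p 0.0337). It stood at -0.51 ± 0.18 in the high line (SE; limma adjusted p 0.0457) and at -0.22 ± 0.18 in the low line (SE; limma adjusted p 0.515). Its signal was 33.1 to 108 (median 92.2) in amygdala of the high line, 67.3 to 100 (median 85.6) in amygdala of the low line, 96.0 to 136 (median 110) in hippocampus of the high line and 76.6 to 119 (median 105) in hippocampus of the low line. The groups overlapped, and the lowest values, 33.1 and 50.7, belong to amygdala arrays 7 and 8, the arrays with the low actin ratios. Without those arrays the difference was -0.20 with a limma adjusted p of 0.0775, and within the high line -0.17 with an adjusted p of 0.364. The call was also lost on leaving out any 1 of 8 arrays (amygdala low 4 or 5, amygdala high 8, hippocampus low 1, 4 or 6, hippocampus high 7 or 8), at a limma adjusted p of at most 0.0639, and it was made in 24 of 35 settings. The 35 settings include the main fit, and the exclusion of hippocampus array 7 is counted in duplicate among them. Within the high line the call was made in 14 of 35 settings, and was lost with log2(value + 1) (limma adjusted p 0.0566) and under median centring (adjusted p 0.0587). With array number as a fixed block the limma adjusted p was 0.0718 over both lines and 0.0919 in the high line. The within-array gap between the 2 Cnr1 probe sets differed between tissues by -0.26 ± 0.13 (SE), with a permutation adjusted p of 0.0529 over 3 such contrasts, chosen after the data had been seen, and of 0.214 without amygdala arrays 7 and 8. Around their group means the 2 probe sets correlated at r = 0.05 over the 24 arrays.

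Dagla (1455448_at), the main enzyme of 2-arachidonoylglycerol synthesis in adult brain, was lower in amygdala. Its signal was 243 to 391 (median 304) in amygdala of the high line, 232 to 364 (median 319) in amygdala of the low line, 434 to 535 (median 468) in hippocampus of the high line and 403 to 595 (median 469) in hippocampus of the low line. Every amygdala array lay below every hippocampus array, a separation that 4.91% of all probe sets show. The log2 difference was -0.65 ± 0.09 (SE; limma adjusted p 2.38e-06), at -0.66 in the high line and -0.64 in the low line.

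Daglb (1451970_at), the related lipase best known from macrophages and microglia in mice, was not called between tissues. It read 72.1 to 116 (median 84.8) in amygdala of the high line, 61.3 to 102 (median 80.8) in amygdala of the low line, 84.7 to 121 (median 109) in hippocampus of the high line and 71.2 to 114 (median 91.6) in hippocampus of the low line, with all groups overlapping. Its log2 difference was -0.21 ± 0.08 (SE; limma adjusted p 0.0616), and it passed the threshold in 5 of 35 settings, with a lowest adjusted p of 0.0209. Measured within each array, Dagla minus Daglb averaged 1.68 ± 0.24 in amygdala and 2.12 ± 0.29 in hippocampus on the log2 scale (SD, n = 12 each), a difference of -0.44 ± 0.11 (SE; permutation adjusted p 6.90e-04 over 3 contrasts). That contrast was chosen after the data had been seen.

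Of the 4 Mgll probe sets 1 was called. Probe set 1450391_a_at read 342 to 461 (median 382) in amygdala of the high line, 309 to 434 (median 390) in amygdala of the low line, 444 to 547 (median 514) in hippocampus of the high line and 476 to 568 (median 531) in hippocampus of the low line. Of the amygdala arrays only array 7 of the high line, at 461, reached into the hippocampus range. It was called lower in amygdala, at -0.42 ± 0.06 (SE; limma adjusted p 7.76e-06), at -0.37 in the high line and -0.47 in the low line. Probe set 1426785_s_at read 712 to 839 (median 764) in amygdala of the high line, 577 to 790 (median 717) in amygdala of the low line, 721 to 883 (median 749) in hippocampus of the high line and 751 to 886 (median 794) in hippocampus of the low line. All groups overlapped, and the difference of -0.10 ± 0.05 (SE; limma adjusted p 0.160) was not called. By line it was -0.02 ± 0.08 in the high line (SE; limma adjusted p 0.890) and -0.19 ± 0.08 in the low line (SE; limma adjusted p 0.107). The groups also overlapped on 1453836_a_at, which read 385 to 445 (median 414) in amygdala of the high line, 290 to 486 (median 428) in amygdala of the low line, 338 to 441 (median 407) in hippocampus of the high line and 423 to 499 (median 436) in hippocampus of the low line, a difference of -0.03 ± 0.07 (SE; limma adjusted p 0.762). The remaining one, 1431331_at, lay below the array median on all 24 arrays, between 1.46 and 37.4, and differed by 0.14 ± 0.17 (SE; limma adjusted p 0.612).

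Because 1450391_a_at and 1426785_s_at are read on the same arrays, their gap was also compared between tissues, a contrast added after the data had been seen. The log2 gap averaged -0.91 ± 0.14 in amygdala and -0.60 ± 0.13 in hippocampus (SD, n = 12 each), a difference of -0.31 ± 0.05 (SE; permutation adjusted p 1.80e-04 over 3 contrasts). The arrays of the tissues overlapped in this gap. Around group means, 1426785_s_at correlated with 1453836_a_at at r = 0.70 and with 1450391_a_at at r = 0.42, while 1431331_at correlated with the others at -0.24 to -0.37. Which transcripts of Mgll each probe set reads is not given in the sources used here.

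Napepld (1437872_at), which releases anandamide from its membrane precursor, was lower in amygdala, at -0.83 ± 0.07 on the log2 scale (SE; limma adjusted p 4.79e-09). Its signal was 50.7 to 72.9 (median 62.7) in amygdala of the high line, 53.1 to 82.8 (median 63.9) in amygdala of the low line, 104 to 159 (median 125) in hippocampus of the high line and 102 to 142 (median 125) in hippocampus of the low line. No amygdala array reached the lowest hippocampus array. The difference was -0.87 in the high line and -0.78 in the low line. In mice Napepld is known to be concentrated in the granule cells of the dentate gyrus.

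Faah, the enzyme that ends anandamide signalling, was lower in amygdala on both probe sets. On 1421969_a_at it read 190 to 245 (median 206) in amygdala of the high line, 188 to 249 (median 219) in amygdala of the low line, 283 to 375 (median 318) in hippocampus of the high line and 343 to 422 (median 368) in hippocampus of the low line. Amygdala and hippocampus did not overlap, and the log2 difference was -0.64 ± 0.06 (SE; limma adjusted p 1.18e-08). Probe set 1434091_at read 77.4 to 122 (median 106) in amygdala of the high line, 105 to 126 (median 113) in amygdala of the low line, 99.3 to 171 (median 150) in hippocampus of the high line and 116 to 221 (median 166) in hippocampus of the low line. There the tissues overlapped and differed by -0.42 ± 0.09 (SE; limma adjusted p 9.54e-04). In the high line it stood at -0.40 (limma adjusted p 0.0298), and the call was lost under median centring (adjusted p 0.103) or without any 1 of amygdala arrays 9 and 12 and hippocampus arrays 7, 10 and 11 (adjusted p 0.0516 to 0.0808), and with array number as a fixed block (adjusted p 0.0546). In the low line it stood at -0.44 (limma adjusted p 0.020), and the call was lost without hippocampus array 2 or 4 (adjusted p 0.0603 and 0.0511). Around group means the 2 Faah probe sets correlated at r = -0.02.

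Ptgs2 showed the largest tissue difference of the 7 genes. Probe set 1417262_at read 17.4 to 43.3 (median 27.1) in amygdala of the high line, 27.5 to 74.2 (median 36.5) in amygdala of the low line, 71.2 to 141 (median 109) in hippocampus of the high line and 126 to 186 (median 152) in hippocampus of the low line. Probe set 1417263_at read 6.19 to 43.3 (median 28.0) in amygdala of the high line, 24.4 to 52.7 (median 36.3) in amygdala of the low line, 69.7 to 132 (median 104) in hippocampus of the high line and 125 to 164 (median 147) in hippocampus of the low line. On 1417263_at no amygdala array reached a hippocampus array, and on 1417262_at the tissues did not overlap within either line. The log2 differences were -1.53 ± 0.12 and -1.56 ± 0.13 (SE; limma adjusted p 4.98e-10 and 2.04e-09), and with a pseudocount of 64 they were -0.96 on both. Over 35 settings they ran from -1.91 to -0.96 on 1417262_at and from -2.03 to -0.96 on 1417263_at. The signal lay below the array median on 11 of 24 arrays on 1417262_at and on 10 on 1417263_at, and the size of the difference varied with the pseudocount. Around group means the 2 probe sets correlated at r = 0.41.

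**Figure D2:**
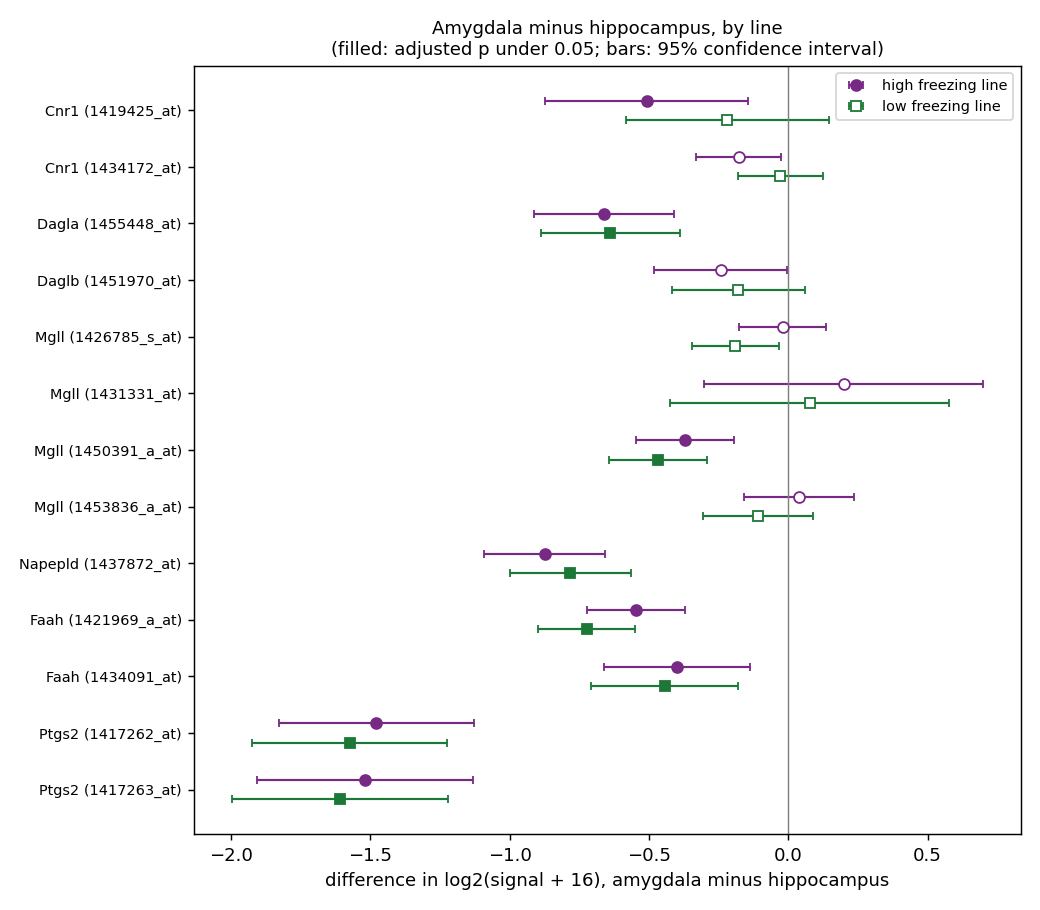
Amygdala minus hippocampus on the log2(signal + 16) scale (x axis) for the 13 probe sets (y axis), in the high freezing line (circles) and the low freezing line (squares); bars are 95% confidence intervals and filled symbols have an adjusted p under 0.05. Both Ptgs2 probe sets lie between -1.48 and -1.61, and the intervals of the 2 lines overlap for every probe set.

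The order of the 4 group means was read against the larger SD of each neighbouring pair. For Napepld, Dagla and Mgll 1450391_a_at, both hippocampus groups stood above both amygdala groups by more than that SD, and the lines within a tissue differed by less. On Ptgs2 1417262_at all 3 steps exceeded the SD, in the order hippocampus low, hippocampus high, amygdala low and amygdala high. The last of these steps was 0.39 against an SD of 0.37. It includes amygdala array 2 of the low line at 6.49, with the next array of that group at 5.94. The other Ptgs2 probe set gave the same order, with the last step, 0.36, below the SD of 0.50. On Faah 1421969_a_at hippocampus of the low line exceeded hippocampus of the high line by 0.21 and that group exceeded amygdala of the low line by 0.51, both over the SD. On Cnr1 1434172_at the one step over the SD was the 0.15 between hippocampus of the high line and hippocampus of the low line. On Cnr1 1419425_at it was the 0.22 by which hippocampus of the low line exceeded amygdala of the low line, and on Faah 1434091_at the 0.26 by which hippocampus of the high line exceeded amygdala of the low line. For Daglb, Mgll 1426785_s_at, 1453836_a_at and 1431331_at no step exceeded the SD.

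Markers of other cell types were counted beside these genes, against the 25.8% of all probe sets called. Of 5 oligodendrocyte markers 4 were lower in amygdala, with summed signals of 10592 to 12531 in amygdala of the high line and 10040 to 12084 in amygdala of the low line, against 12395 to 17397 in hippocampus of the high line and 13509 to 16406 in hippocampus of the low line. Of 6 astrocyte markers 4 were lower and 2 higher, with sums of 10565 to 12077 over the amygdala arrays and 12875 to 14164 over the hippocampus arrays. Of 6 meningeal markers 4 were lower, of 7 microglial markers 3 were higher, and 1 of 4 endothelial and 1 of 3 choroid plexus markers were lower. Of 6 markers of GABA neurons and cholecystokinin basket cells, Slc32a1, Gad2 and Gad1 were higher and 2 were not called. Cck was lower at -0.48 ± 0.05 (SE; limma adjusted p 1.19e-07). The basket cells are the cells richest in CB1, and the called markers were not taken to read these cells alone. No marker was at 0 on all arrays of a group. Their part in the differences of the 7 genes was not tested.

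Genes around the pathway were counted from lists written with earlier results of these data known. The counts of these lists stand beside the 25.8% of all probe sets called between the tissues in either direction. Each listed gene was taken by its brightest probe set, whereas that share includes weak probe sets. Of 17 other endocannabinoid genes measured, 3 were higher in amygdala, 4 lower and 10 not called. The lowest p values were those of Abhd6, which also hydrolyses 2-arachidonoylglycerol, at -0.74 ± 0.08 (SE; limma adjusted p 2.69e-07), of Plaat1, a phospholipid acyltransferase, at 0.48 ± 0.07 (adjusted p 2.54e-05), and of the fatty acid binding proteins Fabp7 at 0.31 and Fabp3 at 0.21. A further fatty acid binding protein, Fabp5, was lower at -0.21 ± 0.05 (SE; limma adjusted p 0.00118). Of 10 genes that start 2-arachidonoylglycerol synthesis, 2 were higher and 5 lower: the muscarinic receptor Chrm3 was lower at -1.24 ± 0.11, the scaffold Homer2 at -0.87 ± 0.09 and the G protein Gnaq at -0.50 ± 0.04, while phospholipase Plcb4 was higher at 0.50 ± 0.06 (SE; limma adjusted p at most 1.21e-06).

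Of 9 genes through which CB1 acts, 2 were higher and 5 lower in amygdala. Adcy1, the adenylyl cyclase stimulated by calcium, was lower at -1.29 ± 0.05 (SE; limma adjusted p 4.16e-15), the potassium channels Kcnj6 and Kcnj3 at -0.65 ± 0.07 and -0.47 ± 0.06, and the inhibitory G protein Gnai2 was higher at 0.22 ± 0.04. Among 8 prostaglandin genes measured, the synthase Ptgds was lower at -1.26 ± 0.21 (SE; limma adjusted p 5.18e-05), the receptor Ptger2 higher at 0.39 ± 0.13 (adjusted p 0.0239) and 6 were not called. That is near the 25.8% called over all probe sets. Among 12 immediate early genes, 4 were lower and 1 higher: Arc was lower at -1.61 ± 0.26, Bdnf at -0.61 ± 0.08, Nr4a1 at -0.53 ± 0.15 and Homer1 at -0.18 ± 0.05 (SE; limma adjusted p at most 0.0113), and Fosb was the gene that was higher. Fos, at -0.09 ± 0.20, was not called. Homer1 is also on the list of genes that start 2-arachidonoylglycerol synthesis, by the same probe set, so its call counts in both lists. Which Homer1 transcripts that probe set reads is not given in the sources used here. No called gene of these 5 lists changed direction under median centring or quantile normalization.

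**Figure D3:**
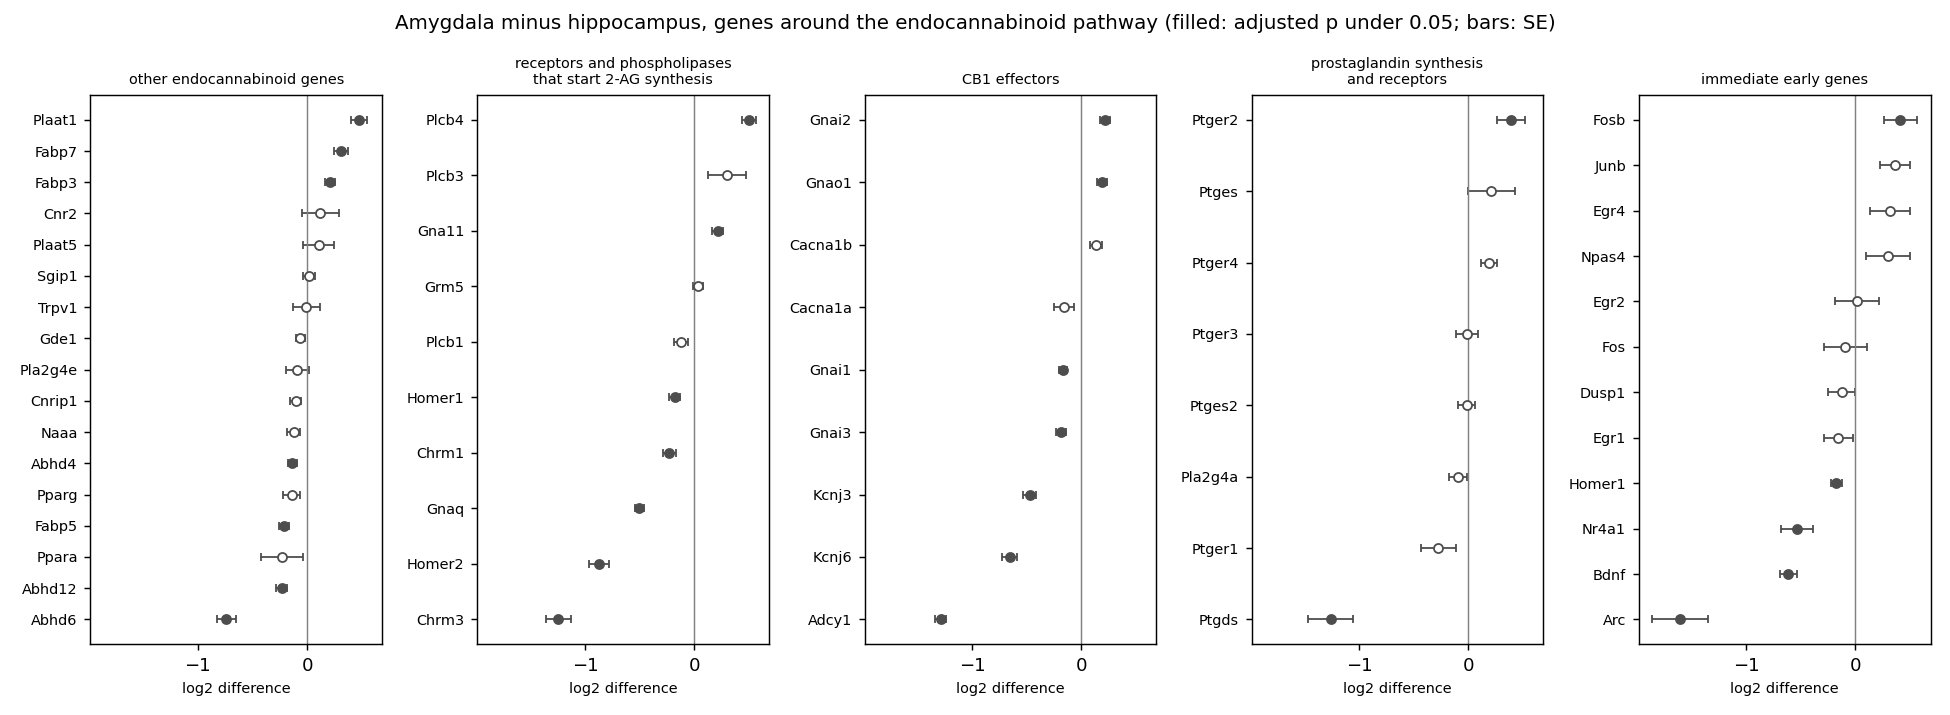
Amygdala minus hippocampus on the log2(signal + 16) scale (x axis) for each measured gene (y axis) of 5 lists around the pathway, by its brightest probe set; bars are SE and filled circles have an adjusted p under 0.05. Each list holds genes on both sides of 0, from Arc at -1.61 to Plcb4 at 0.50.

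The second question was whether the lines differ. No member was called between the high and low lines, in amygdala (background 0.00222% called) or in hippocampus (background 0.0222% called). At an unadjusted p under 0.05 limma gave 1 of 13 probe sets in amygdala, against 6.54% of all probe sets, and 3 of 13 in hippocampus, against 8.97%. Both Ptgs2 probe sets were among those in hippocampus. By the brightest probe set of each gene the counts were 1 of 7 in amygdala and 2 of 7 in hippocampus. The arrays of the lines overlapped on all 13 member probe sets in amygdala (background 0.402% without overlap) and in hippocampus (background 0.637%). The widest 95% intervals outside Ptgs2 were those of Mgll 1431331_at, at -0.20 to 0.79 in amygdala and -0.34 to 0.69 in hippocampus, and of Cnr1 1419425_at in amygdala, at -0.59 to 0.34. The other 9 probe sets outside Ptgs2 had intervals within -0.34 to 0.35 in amygdala. In hippocampus the 10 besides Mgll 1431331_at had intervals within -0.51 to 0.40, the lower bound being that of Faah 1434091_at.

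Ptgs2 had the lowest p of the members in both tissues. In hippocampus the high minus low difference was -0.48 ± 0.15 on 1417262_at and -0.45 ± 0.13 on 1417263_at (SE; unadjusted p 0.00788 and 0.00398, limma adjusted p 0.408 and 0.370). In amygdala it was -0.39 ± 0.17 and -0.36 ± 0.22 (unadjusted p 0.0444 and 0.125, limma adjusted p 0.762 and 0.818). None of these passed the adjusted threshold. Without amygdala arrays 7 and 8 the amygdala values were -0.34 and -0.32, and without hippocampus array 7 the hippocampus values were -0.56 and -0.46. Amygdala array 2 of the low line read 74.2 on 1417262_at, against 27.5 to 45.3 on the other arrays of its group. Its score in the leading principal component of amygdala was -46.9, against -11.1 to 47.8 on the other amygdala arrays. Over 21 settings the amygdala values ran from -0.56 to -0.20 on 1417262_at and from -0.62 to -0.17 on 1417263_at.

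**Figure D4:**
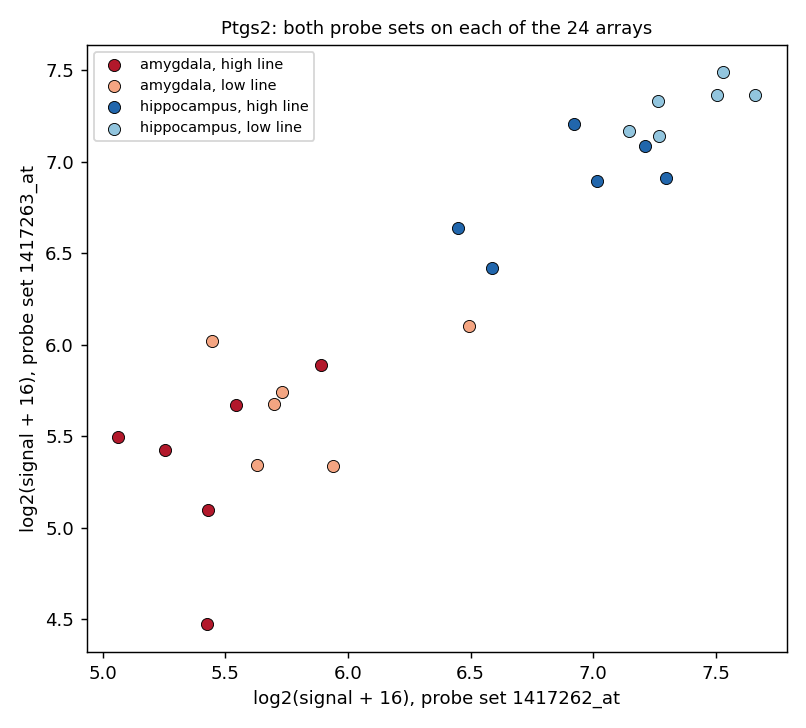
Ptgs2 on each of the 24 arrays, probe set 1417262_at (x axis) against 1417263_at (y axis), both as log2(signal + 16), coloured by tissue and line. Hippocampus arrays lie at 6.42 or above on both axes, amygdala arrays at 6.10 or below on the y axis, and the lines overlap within each tissue.

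Other measures were set beside the line values in hippocampus. The 18S control read 3600 to 5800 on arrays of the high line and 5859 to 7093 on arrays of the low line, without overlap (exact two-sided permutation p 0.00216, adjusted p 0.0173 over 8 tests). The summed signal of the 8 hippocampus markers was 7195 to 7936 in the high line and 8464 to 9361 in the low line. All 8 had negative differences, with a median of -0.28 and a lowest of -0.94. Of these, 5 had an unadjusted limma p under 0.05, against 8.97% of all probe sets, and none was called (lowest limma adjusted p 0.0754). All 6 meningeal markers had positive differences, with a median of 0.22, 2 at an unadjusted p under 0.05 and none called (lowest limma adjusted p 0.268), and their summed signal was 1646 to 1974 in the high line and 1204 to 1676 in the low line. The part of these measures in the Ptgs2 values was not tested.

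Among the remaining members, Faah 1421969_a_at differed between the lines in hippocampus by -0.21 ± 0.09 (SE; unadjusted p 0.0264, limma adjusted p 0.501) and in amygdala by -0.04 ± 0.09. Cnr1 1434172_at stood at 0.15 ± 0.07 in hippocampus (SE; unadjusted p 0.0576, limma adjusted p 0.579), and its 95% interval in amygdala was -0.19 to 0.18. Dagla differed by 0.01 in hippocampus and -0.01 in amygdala, with 95% intervals of -0.21 to 0.23 in hippocampus and -0.31 to 0.28 in amygdala. Napepld differed by 0.03 and -0.06 in the same order of tissues. No gene of the 5 surrounding lists was called between the lines in either tissue. The lowest limma adjusted p among them was 0.405, that of the phospholipase Plcb3 in hippocampus, at -0.84 ± 0.26 (SE).

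**Figure D5:**
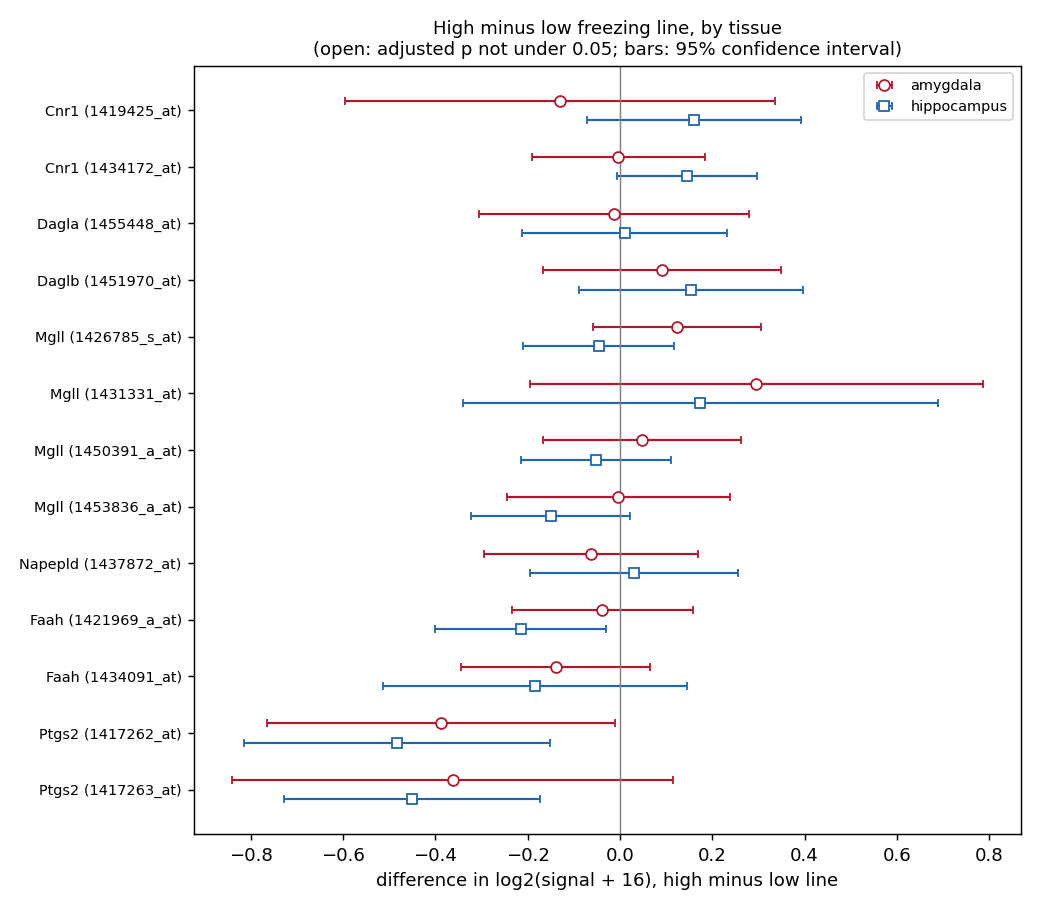
High minus low freezing line on the log2(signal + 16) scale (x axis) for the 13 probe sets (y axis), in amygdala (circles) and hippocampus (squares); bars are 95% confidence intervals and open symbols mark an adjusted p not under 0.05. All symbols are open, and both Ptgs2 probe sets lie between -0.36 and -0.48.

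The difference between tissues of the line difference was tested over all 24 arrays, and no member was called (background 0% called, 7.08% at an unadjusted p under 0.05, against 0 of 13 members). For Ptgs2 it was 0.10 ± 0.24 and 0.09 ± 0.27 (SE; limma adjusted p 0.960 and 0.968). The lowest adjusted p, 0.768, was that of Mgll 1426785_s_at at 0.17 ± 0.11 (SE).

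The genes most like each member were found from deviations around the 4 group means, over 24 arrays and the named probe sets above the median signal. Genes with several probe sets were taken by 1 of them (Cnr1 1434172_at, Mgll 1426785_s_at, Faah 1421969_a_at and Ptgs2 1417262_at), so a likeness is that of the probe set and was not computed for the gene's others. Cnr1 1434172_at ran closest to Usp33 (r = 0.87), Pcmtd2 (0.85) and Klhdc2 (0.83). Dagla ran closest to Mtfr1l (0.73), Daglb to Cldnd1 (0.70), Mgll 1426785_s_at to Fis1 (0.78), Napepld to Fcgr1 (0.72), Faah 1421969_a_at to Dnajc17 (0.79) and Ptgs2 1417262_at to Pdgfra (0.74). Without the 2 arrays farthest from the member's median these values were 0.80 for Usp33, 0.76 for Mtfr1l, 0.69 for Cldnd1, 0.73 for Fis1, 0.70 for Fcgr1, 0.72 for Dnajc17 and 0.69 for Pdgfra. These values are a description over arrays scaled to a common mean, and are the highest of 18913 to 18915 comparisons each.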

How the data were processed

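The authors deposited linear intensity values, 1 per probe set, with no genome build. No source used here names the signal algorithm or software. The trimmed mean of each column shows that arrays were scaled: the mean without the top and bottom 2% of probe sets is 150.001 on every array. Of 45101 probe sets, 64 controls were left out. Platform annotation gave 1 symbol for 34945, several for 932 and none for 9160. Values were tested as log2(value + 16) with limma 3.58.1 (lmFit, eBayes) in R 4.3.3, with Benjamini-Hochberg adjustment over 45037 probe sets: tissue contrasts and the difference between tissues over all 24 arrays, line contrasts over the 12 arrays of a tissue. The within-array gaps used 100000 permutations, two-sided, in SciPy 1.17.1. Fits were also run on simulated arrays of independent normal values, with known changes added only to probe sets above the median signal. The simulation held no array quality or pairing effects and did not cover changes in weaker probe sets, and its outcome is not given here. An array gives no counts, so the number of arrays limits precision. Alternatives changed the pseudocount (1, 64), scaling, filter (lowest 40%), variance trend, arrays and block. All probe sets of the members are described; of other lists up to 4 called genes by lowest p are named; Plcb3, Fos, Fosb and Fabp5 were singled out after their values were seen. The members and lists were chosen with earlier results of these data known.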

Additional observations from a re-analysis of the deposited data

Results flagged for a closer look

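Of 52 groups of 6 arrays (13 probe sets in 4 groups), 2 held an array farther from the rest than Dixon's 95% limit allows, where chance gives about 1 group in 20. Mgll 1431331_at, the probe set below the array median throughout, read 5.74 on the log2 scale on hippocampus array 7 of the high line, against 4.31 for the next array of that group. Mgll 1453836_a_at read 8.26 on amygdala array 3 of the low line, against 8.74 for the next lowest. Neither probe set was called in any comparison.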

How the results depend on the processing

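The number of member probe sets called between tissues stayed at 7 to 9 over 34 alternatives (7 to 9 leaving out 1 array), within the high line at 6 to 9 (6 to 8 leaving out 1 array) and within the low line at 6 to 8 (6 to 7 leaving out 1 array), and it stayed at 0 for both line comparisons and their difference. Over single probe sets, 2164 of 2282 alternative values kept direction and side of the threshold, 42 values of 4 results lost a call, 7 values of 3 results gained one (Daglb between tissues, Cnr1 1434172_at in the high line, Mgll 1426785_s_at in the low line), 69 uncalled values of 21 results changed sign, and 0 called values did. The lost calls were those of Cnr1 1419425_at (tissue and high line) and Faah 1434091_at (each line), and the cause was not tested. Hippocampus array 7 of the high line was left out both as a named setting and among the single arrays. Its exclusion is therefore counted in duplicate in every comparison that uses hippocampus arrays. Of 12 alternative values of the within-array gaps 11 kept direction and side of the threshold, and that of Cnr1 passed at log2(value + 1), with an adjusted p of 0.0390. Array numbers recur in both tissues, but no label says that equal numbers mark the same animal, so the numbers were not taken to pair samples. Arrays with the same number correlated at -0.06 to 0.10 around group means, and 2 of 12 matched their own number best. Such values, read across different tissues, cannot decide whether the arrays share an animal. With the number as a replicate block (consensus correlation 0.00672) the counts were 8, 8, 7 and, for the contrast of line differences, 0. As a fixed block, added after seeing the data, they were 7, 6, 7 and 0. The line comparisons share no array numbers. Mgll 1431331_at has no value without the lowest 40% of probe sets. Weak signals, such as Mgll 1431331_at and Ptgs2 in amygdala, limit the size of fold that can be read.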
